A study of Mus musculus with 12 samples.

Results

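Gene expression in primary mouse keratinocytes infected with a virus that expresses a TEAD inhibitor (Ad-TEADi) was compared, gene by gene across the whole deposited table, with that in keratinocytes infected with a virus that expresses green fluorescent protein (Ad-GFP). The comparison used the libraries labelled TEADi A, B and C and GFP A, B and C, which are 6 of the 12 libraries of the study. Of the 17090 genes in the table, 12966 reached at least 1 CPM (the deposited scaled count, in which library totals are made comparable) in at least 3 of the 12 libraries and were tested, and 4124 were set aside. The cells of every library were grown from the tail skin of K14-SmoM2 mice, which develop basal cell carcinoma-like lesions, taken 5 weeks after tamoxifen. In these mice an active form of Smoothened, the signalling component of the Hedgehog receptor, is switched on in epidermis that expresses keratin 14, so that control cells and inhibitor cells alike carry the Hedgehog-activating allele. Both viruses were type 5 adenoviruses lacking the E1 and E3 regions, drove their insert from the CMV promoter, and were given at a multiplicity of infection of 25 in a low-calcium medium with epidermal growth factor and the ROCK inhibitor Y-27632. RNA was taken 48 h later. The remaining 6 libraries (siControl and siYAP1+TAZ, small interfering RNA against the TEAD coactivators) served as background and helped to estimate the spread. The labels do not state whether the 3 libraries of a group are separate cultures or animals. The p-values therefore reflect the spread among these libraries alone, which may be technical.

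TEAD proteins are DNA-binding factors with little activity of their own. They bind a short motif with the core GGAATG and recruit the coactivators YAP and TAZ, which enter the nucleus when cells are spread, under tension or released from contact with neighbours. In epidermis, YAP and TAZ are active mainly in basal keratinocytes, which sit on the basement membrane and divide, and their activity falls as cells leave that layer and build the cornified barrier. Known targets in many cell types include the CCN family of secreted proteins, actin-binding proteins and matrix genes. TEAD sites in enhancers often lie beside sites for AP-1, a dimer of FOS and JUN proteins that binds TGANTCA.

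Stretches of 250 bases before the transcription start are shown for 4 of the genes with the largest changes, picked because each holds a core of the TEAD or the AP-1 motif within that window, so they show where such letters lie and say nothing of how often. Sequences are those of RefSeq promoters on GRCm38.p6, written 5′ to 3′ on the strand of the gene, and capitals mark the motif as it lies on that strand. In Acta1, a skeletal muscle type actin gene, and Edn1, which encodes the vasoactive peptide endothelin, the TEAD core lies on the opposite strand and so reads as its reverse complement. Both genes fell with Ad-TEADi. In Tcf23, a gene for a basic helix-loop-helix protein, the TEAD core lies on the strand of the gene, and in Sprr2f, a cornified envelope precursor gene, the AP-1 motif does. Both of these genes rose.
Acta1 (chr8:123894776-123895025, minus strand): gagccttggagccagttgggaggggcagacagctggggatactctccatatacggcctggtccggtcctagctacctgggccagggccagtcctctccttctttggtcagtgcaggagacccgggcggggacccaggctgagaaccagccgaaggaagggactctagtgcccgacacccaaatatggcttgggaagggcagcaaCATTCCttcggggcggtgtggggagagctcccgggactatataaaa
Edn1 (chr13:42301226-42301475, plus strand): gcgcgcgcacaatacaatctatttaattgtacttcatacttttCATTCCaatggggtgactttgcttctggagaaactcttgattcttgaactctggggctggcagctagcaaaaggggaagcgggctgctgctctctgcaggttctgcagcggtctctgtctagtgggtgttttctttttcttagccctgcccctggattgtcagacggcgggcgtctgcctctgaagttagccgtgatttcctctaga
Tcf23 (chr5:30968427-30968676, plus strand): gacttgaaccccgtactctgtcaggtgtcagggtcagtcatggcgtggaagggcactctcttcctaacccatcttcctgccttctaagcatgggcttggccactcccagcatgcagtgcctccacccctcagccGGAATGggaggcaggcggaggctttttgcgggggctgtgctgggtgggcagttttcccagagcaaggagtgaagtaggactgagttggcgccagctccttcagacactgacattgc
Sprr2f (chr3:92364937-92365186, plus strand): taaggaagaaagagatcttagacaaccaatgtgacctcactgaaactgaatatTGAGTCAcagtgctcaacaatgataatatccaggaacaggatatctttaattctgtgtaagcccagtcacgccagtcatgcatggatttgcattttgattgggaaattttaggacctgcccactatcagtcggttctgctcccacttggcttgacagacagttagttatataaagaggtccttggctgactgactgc
RefSeq promoters were matched for 9661 of the 12966 genes tested (74.5%), and both motifs were searched on both strands of the 250 bases. GGAATG was present in 10.5% of all matched promoters, in 48 of the 364 matched promoters of genes at least 2-fold higher with Ad-TEADi (13.2%) and in 40 of the 257 of genes at least 2-fold lower (15.6%). TGANTCA was present in 4.51% of all matched promoters, in 51 of the 364 of the higher genes (14.01%) and in 16 of the 257 of the lower genes (6.23%). The last letters of the first motif can be the first letters of the second, and a promoter that held both was counted for each. Among the 15 largest rises and 15 largest falls, promoters were matched for 14 and 5 genes, of which 4 and 2 held GGAATG, and TGANTCA was in 1 of the 14 and 0 of the 5. These shares describe letters in a short window and no test was made of them.

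Ad-TEADi libraries differed from Ad-GFP libraries at most of the genes tested, but mainly by small amounts. At an adjusted p below 0.05 (limma on log2 of CPM + 1, Benjamini-Hochberg over all genes tested), 4339 genes were higher, 33.5% of those tested, and 3415 were lower, 26.3%. Of these 7754 calls, 5717 (73.7%) were under 1.5-fold. The split of calls into higher and lower depended on scaling: 55.96% were higher with the authors' scaling, 39.1% (3034 higher and 4717 lower) after each library was rescaled to an equal column total, and 47.3% (3536 and 3945) after quantile normalization. The deposited columns summed to 857858 to 872057 CPM with Ad-GFP and 914082 to 937954 CPM with Ad-TEADi. The median change over all genes tested was 0.0320 on the log2 scale and moved by -0.0894 with equal column totals, so family medians nearer to 0 than this carry no direction.

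Changes of at least 2-fold on the log2(CPM + 1) scale were far fewer. They were called for 508 genes that rose (3.92%) and 352 that fell (2.71%). The 3 Ad-TEADi values lay outside the range of the 3 Ad-GFP values for every one of them. With replicates this close, the 2 thresholds all but require that separation, so it is no separate result. The genes that rose had a median level of 9.92 CPM with Ad-GFP and 27.3 CPM with Ad-TEADi. Those that fell went from a median of 17.2 CPM to 5.18 CPM. Changes of at least 4-fold were called for 71 genes that rose and 54 that fell. Most of these genes encode proteins, 488 of the 508 and 342 of the 352. In the authors' deposited table, all 508 and all 352 had a false discovery rate below 0.05 and a ratio in the same direction. That table compares the same libraries, so it is no independent support. By its own ratios and at that rate, 1131 of its 17090 genes had a ratio of at least 2 and 854 a ratio of at most 0.5.

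**Figure D1:**
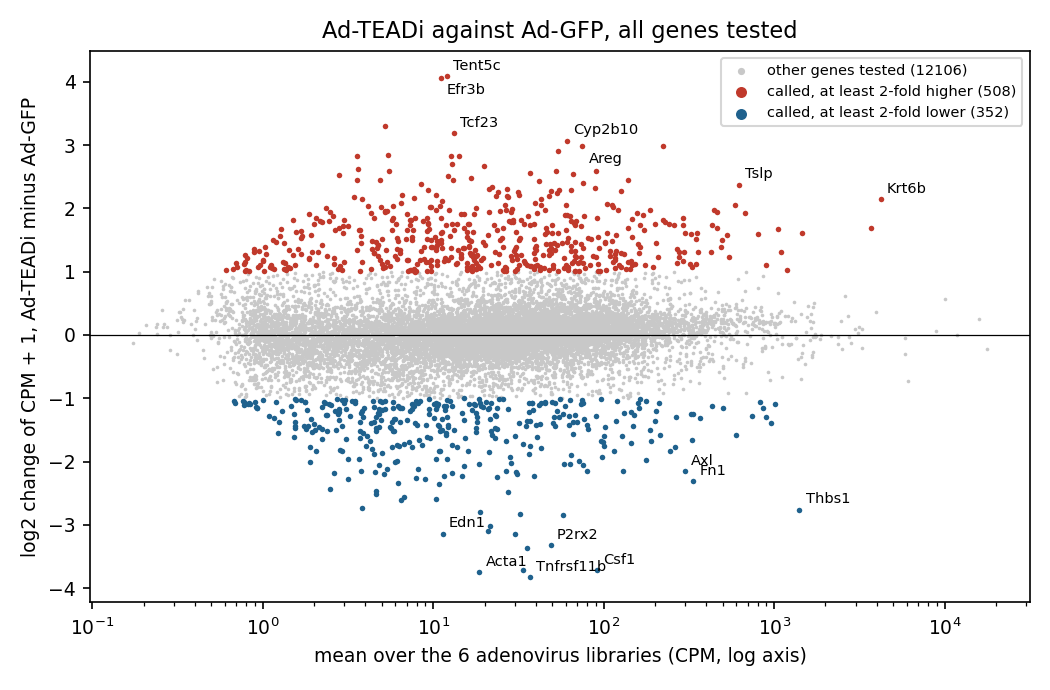
Log2 change of CPM + 1 (Ad-TEADi minus Ad-GFP, vertical axis) against the mean over the 6 adenovirus libraries (CPM, log axis), 1 point per gene tested. The 508 genes called at least 2-fold higher and the 352 called at least 2-fold lower are coloured, and the other genes tested are grey.

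Depth and identity of the libraries were checked before gene families were read. Read totals inferred from the smallest CPM steps were 21.4 to 28.5 M reads for Ad-GFP and 21.6 to 24.1 M for Ad-TEADi. Replicates correlated at r of 0.997 to 0.998 across genes, which are not independent replicates. Ad-GFP C had the highest of the 3 Ad-GFP values for 74.6% of the genes that rose at least 2-fold, against 39.0% of all genes tested, and Ad-GFP B had the lowest for 70.3%, against 43.1%. The genes that rose thus shared this order of the control libraries more often than all genes tested, and its part in the result was not tested. Leaving out Ad-GFP C gave 551 genes at least 2-fold higher and leaving out Ad-GFP B gave 485. Basal keratinocyte markers summed to 43455 to 46268 CPM with Ad-GFP and 40589 to 44533 CPM with Ad-TEADi (3 of 7 rose and 4 fell). Suprabasal markers summed to 742 to 978 CPM and 2685 to 2847 CPM (6 of 7 rose). In bulk RNA, fewer cells of a type and less RNA per cell cannot be told apart. Summed markers of other cell types were low: 2.35 to 3.21 and 3.70 to 4.26 CPM for fibroblasts (1 of 4 tested rose), 8.67 to 9.91 and 10.3 to 12.2 CPM for melanocytes (3 of 5 rose), and 17.3 to 19.8 and 40.1 to 44.03 CPM for immune cells, where 3 of 4 tested rose and 1 fell while Ptprc, which marks all leukocytes, was under 1 CPM in all 6 libraries. Endothelial markers summed to 9.57 to 11.1 and 9.45 to 11.2 CPM, sebaceous markers, which include lipid genes of keratinocytes, to 382 to 403 and 429 to 474 CPM, and Merkel cell markers, among them Krt8, to 28.1 to 31.4 and 9.58 to 10.3 CPM. The Hedgehog targets summed to 43.1 to 45.3 and 38.05 to 43.4 CPM. The part of any of these cell types in the results was not tested.

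Among the 15 largest rises (mean level 10 CPM or more in the 6 adenovirus libraries), the top of the order was held by genes that were close to undetected in controls. Values are given for libraries A, B and C of each group in that order, in CPM. Tent5c (chr3:100451628-100489324 on mm10), which encodes a poly(A) polymerase that stabilises messenger RNA, read 0.332, 0.417 and 0.569 CPM with Ad-GFP and 22.6, 24.1 and 23.8 CPM with Ad-TEADi. Efr3b (chr12:3962554-4038915), which anchors a phosphatidylinositol kinase at the plasma membrane, read 0.332, 0.417 and 0.325 CPM and 21.5, 22.98 and 20.7 CPM. The rises of the 2 genes were similar, 4.09 (SE 0.0987, adjusted p = 4.33e-17) and 4.06 (SE 0.120, adjusted p = 6.20e-16) on the log2(CPM + 1) scale, which understates changes from such low levels. Cyp2b10, a cytochrome P450 that oxidises xenobiotics, read 11.7, 9.28 and 16.5 CPM and 115, 106.7 and 107.1 CPM (log2 change 3.07). Cpm, which encodes carboxypeptidase M at the cell surface, read 4.38, 4.02 and 5.77 CPM and 34.4, 31.5 and 39.2 CPM. Slfn2, a Schlafen family gene known for roles in lymphocyte quiescence, read 3.08, 2.01 and 3.29 CPM and 25.6, 23.9 and 27.1 CPM. The rule that named these genes, and most genes below, required that the 3 Ad-TEADi and 3 Ad-GFP values not overlap, so the lack of overlap is no result. Teddm3, a transmembrane epididymal protein gene, rose as well (19.09 ± 6.01 to 113 ± 7.05 CPM, mean ± SD, n = 3 libraries in each group here and below). Krt10, the suprabasal keratin, rose from 49.6 ± 9.32 to 393 ± 3.35 CPM. The other rises of this set were Tcf23, Areg, Alox12b, Spink7, Sprr2f, Tgm3, Lce3d and Aqp9, described with their families.

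Several of the 15 largest falls were in genes for secreted proteins. Tnfrsf11b, which encodes osteoprotegerin, the soluble decoy receptor for the osteoclast factor RANKL, read 66.2, 77.9 and 65.3 CPM with Ad-GFP and 3.77, 3.77 and 4.36 CPM with Ad-TEADi (chr15:54250619-54278484; log2 change -3.83, SE 0.0906, adjusted p = 3.84e-17). Csf1, the macrophage colony stimulating factor gene, read 173, 175 and 166 CPM and 11.7, 12.4 and 12.2 CPM (chr3:107741048-107760469; log2 change -3.72, SE 0.0626, adjusted p = 7.69e-19). In both genes the 3 libraries of a group lay close together. Edn1 read 21.2, 21.2 and 21.1 CPM and 1.17, 1.68 and 1.74 CPM. Thbs1, which encodes the matricellular protein thrombospondin, fell from the highest level of this set, with 2353, 2502 and 2505 CPM and 335, 368 and 383 CPM. P2rx2, an ATP-gated cation channel gene, read 84.1, 93.8 and 90.3 CPM and 7.31, 7.78 and 9.02 CPM, low in all 3 inhibitor libraries. Glul, which encodes glutamine synthetase, fell from 39.1 ± 2.89 to 3.96 ± 0.372 CPM, and Fbxo32, which encodes the ubiquitin ligase subunit atrogin, from 57.02 ± 1.96 to 7.17 ± 0.229 CPM. Exons of Prnd, the prion-like doppel gene (102 ± 2.96 to 13.4 ± 0.800 CPM), Cryab, a small heat shock protein gene (33.4 ± 2.04 to 3.97 ± 0.262 CPM), and Tagln, the actin-binding transgelin gene (63.02 ± 3.64 to 3.88 ± 0.102 CPM), overlap exons of another gene in the table, so reads could be shared there. Counting these 3, the same holds for 38 of the 230 tested genes named here, 33 of them with genes on the opposite strand only, and the sources used here do not say whether the counting used strand. Prnd, Serpinb2, Pla2g4b, Sprr2a2 and Rdh1 share exon bases with a gene on the same strand. Upk1b, a uroplakin of the urothelial surface, fell from 18.6 ± 0.437 to 2.25 ± 0.365 CPM and Ccn2 from 65.3 ± 3.90 to 5.40 ± 0.467 CPM, and Acta1, Ncam1 and Adamts15 are described with their families. The siRNA libraries gave a background reading of the same genes: 13 of the 15 rises were at least 2-fold higher and 14 of the 15 falls at least 2-fold lower with siYAP1+TAZ than with siControl. The exceptions included the 2 largest rises, since Tent5c stood at 0.173 ± 0.0809 CPM with siControl and 0.366 ± 0.0184 CPM with siYAP1+TAZ (log2 change 0.22), and Efr3b at 0.434 ± 0.291 and 0.466 ± 0.0425 CPM (0.051), within its SD. Among the falls the exception was Glul (log2 change -0.28). No share over all genes tested is set beside these knockdown counts, and the knockdown differences were not tested.

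**Figure D2:**
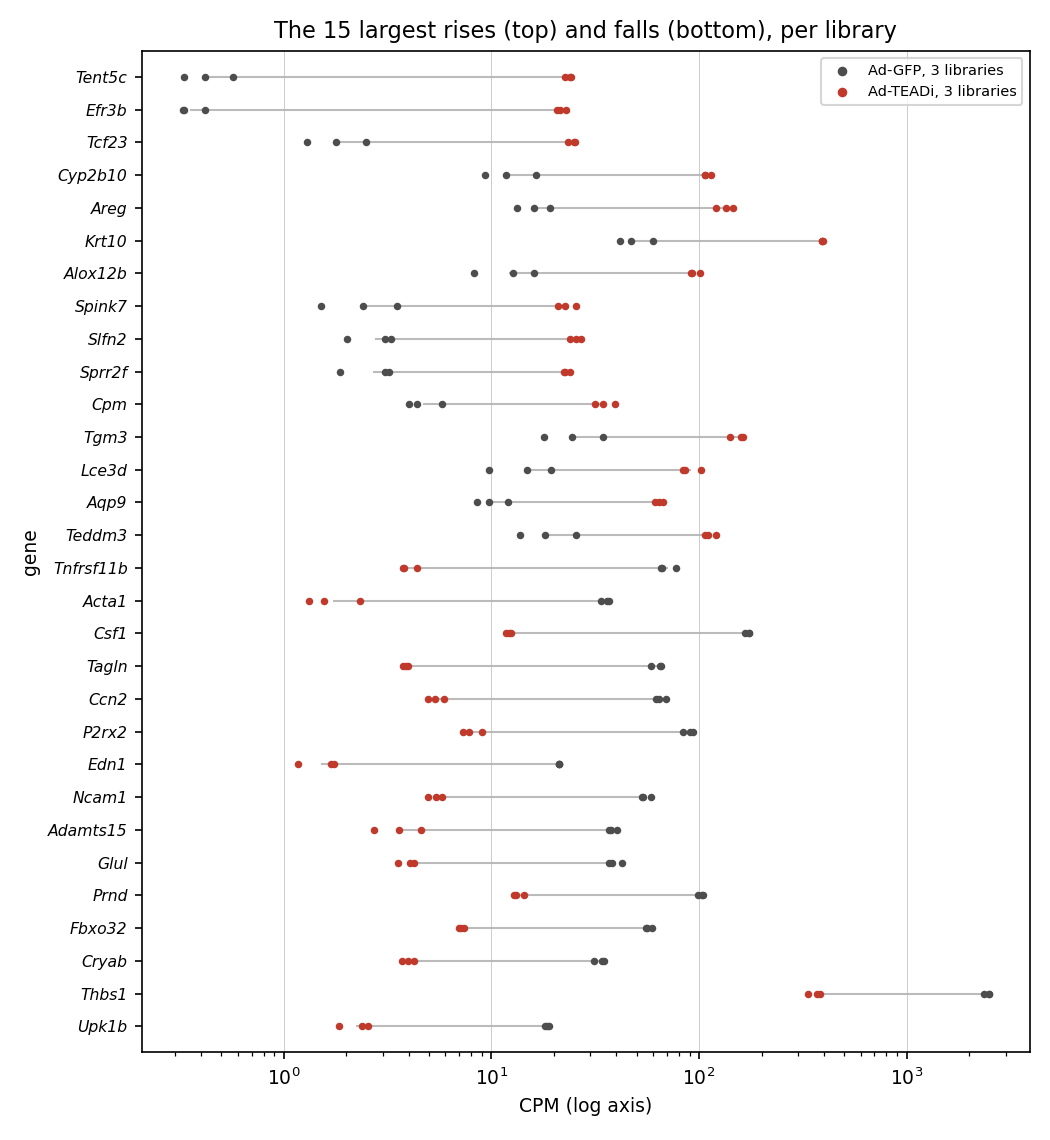
CPM (log axis) in each of the 3 Ad-GFP libraries (grey) and 3 Ad-TEADi libraries (red) for the 15 genes with the largest rises and the 15 with the largest falls, with a line between the group means. The choice of these 30 required that the groups not overlap, and Thbs1 holds the highest values, 2353 to 2505 CPM with Ad-GFP.

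Classes of genes differed in how often they changed by at least 2-fold. Against 3.92% higher and 2.71% lower over all genes tested, the shares were 43.4% higher and 16.98% lower for epidermal cornification genes (53 tested) and 22.6% and 12.4% for secreted proteases and their inhibitors. Secreted ligands gave 11.8% and 14.6% (178), and extracellular matrix genes 7.61% and 20.7% (92). Surface receptors (264) gave 5.30% and 8.33%, and adhesion genes (201) 6.97% and 7.96%. Channels and transporters leaned to rises, 7.92% against 2.90% of 379 genes. Transcription factors, at 3.62% and 1.42% of 636 genes, were near or below the background, and chromatin and housekeeping genes were further below it. The transcription factor share does not stand for each family. Of its genes, 301 were numbered zinc finger genes, at 0.332% higher and 0.664% lower. The bZIP family gave 15.2% and 0%, and HOX genes 0% and 0%. No set test was made, and the lists were drawn up with earlier results of these data known. Counts of called members in the families below stand against 33.5% higher and 26.3% lower over all genes tested. A count near those shares says nothing particular about its family.

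**Figure D3:**
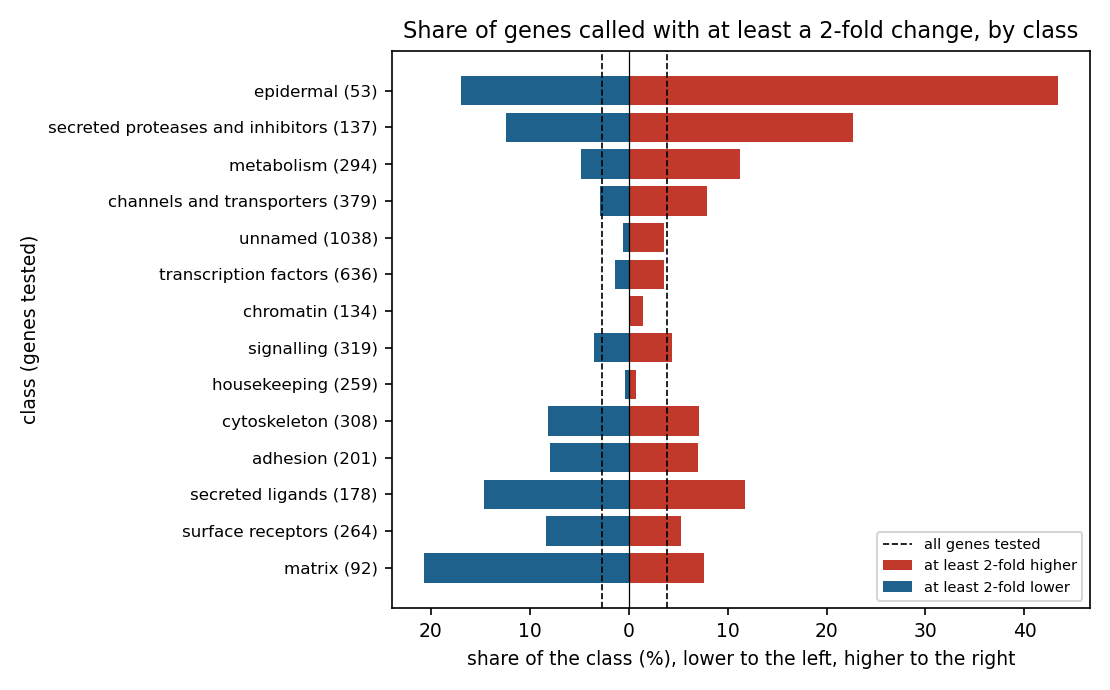
Share of the tested genes of each class (%, horizontal axis from 0 in both directions) called at least 2-fold higher (right) or lower (left) with Ad-TEADi, with the number tested in brackets and dashed lines at the 3.92% and 2.71% of all genes tested. Epidermal genes have the longest bar to the right and matrix genes the longest to the left.

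Of the 22 epidermal lineage factors tested, 11 rose and 5 fell, a split that turned to 8 and 10 with equal column totals. Grhl3, a grainyhead factor needed for barrier formation, read 47.2, 44.2 and 54.7 CPM with Ad-GFP and 191, 194 and 193 CPM with Ad-TEADi (log2 change 1.97, SE 0.0678, adjusted p = 5.43e-15). Ovol1, a zinc finger factor of cells leaving the basal state, read 62.98, 56.9 and 75.1 CPM and 226, 208 and 201 CPM (1.70), and Prdm1, which encodes the repressor BLIMP1, read 22.3, 17.95 and 26.8 CPM and 67.8, 65.4 and 72.1 CPM (1.59). In all 3 genes the 3 inhibitor libraries lay closer together in proportion than the 3 controls. Zfp750, a p63 target that drives terminal differentiation, rose from 50.7 ± 7.99 to 121 ± 2.01 CPM. Runx1 fell from 91.7 ± 2.29 to 46.9 ± 0.799 CPM and Runx2 from 18.8 ± 0.400 to 9.05 ± 0.257 CPM, factors with roles in hair follicle stem cells and bone, respectively. Trp63, the basal lineage factor, rose from 471 ± 12.2 to 537 ± 16.5 CPM, a rise that was not called with equal column totals.

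The bZIP family, which holds AP-1, leaned to rises: 27 of 46 rose and 9 fell, with a median of 0.31 against 0.0320 over all genes (25 and 11 with equal column totals). Fos read 32.3, 31.4 and 37.8 CPM with Ad-GFP and 121, 109 and 110.5 CPM with Ad-TEADi, and its relative Fosl1 read 20.2, 23.03 and 21.6 CPM and 57.2, 57.4 and 58.4 CPM. Both were high in all 3 inhibitor libraries, and their log2 changes were 1.72 and 1.38. Atf4, the effector of the integrated stress response, rose from 194 ± 13.4 to 350.2 ± 21.3 CPM, while Nfe2l1, the most abundant bZIP gene, fell from 474 ± 8.80 to 385 ± 9.95 CPM. Of the immediate early genes outside AP-1, 5 of 10 rose and the other 5 were not called, though 3 fell with equal column totals. Ier2 rose from 29.7 ± 1.94 to 55.2 ± 4.27 CPM and Egr3, whose groups overlapped, from 24.7 ± 5.23 to 32.3 ± 2.69 CPM.

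The helix-loop-helix family held the largest rise of any factor, Tcf23, which read 1.78, 1.29 and 2.48 CPM with Ad-GFP and 25.3, 23.3 and 25.1 CPM with Ad-TEADi (log2 change 3.19, SE 0.128, adjusted p = 4.63e-14). The class otherwise moved in both directions, with 18 of 39 genes higher (46.2%) and 10 lower (25.6%), against 33.5% and 26.3% of all genes tested. Mxd1, which antagonises MYC, rose from 41.99 ± 9.31 to 109 ± 5.98 CPM, and Myc itself fell from 147 ± 8.71 to 99.3 ± 3.9998 CPM. Id1, an inhibitor of helix-loop-helix dimers, rose from 7.22 ± 0.835 to 18.2 ± 2.57 CPM, and Ahr, the dioxin receptor gene, fell from 37.5 ± 1.05 to 20.1 ± 0.889 CPM. Krüppel-like and SP factors leaned to rises (10 of 17 rose and 1 fell, 9 and 4 with equal column totals). Klf3, a transcriptional repressor, rose from 145 ± 21.4 to 275 ± 12.7 CPM and Klf5, a basal layer factor, from 181 ± 7.37 to 302 ± 3.25 CPM.

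All 10 SOX genes tested were called, 7 lower and 3 higher. Sox11, a gene of embryonic epidermis and wound edges, read 7.67, 7.46 and 7.88 CPM with Ad-GFP and 1.32, 1.39 and 1.31 CPM with Ad-TEADi (log2 change -1.89). Sox4 read 127, 130.2 and 130.2 CPM and 61.4, 67.2 and 62.8 CPM, and Sox9, a hair follicle stem cell factor that is also prominent in basal cell carcinoma, read 117, 126 and 118 CPM and 60.6, 64.8 and 65.1 CPM. The 3 genes fell, by -1.89, -1.01 and -0.91 on the log2 scale, whereas Sox7 rose from 2.97 ± 0.630 to 7.75 ± 0.256 CPM and Sox15 from 15.3 ± 0.453 to 21.3 ± 2.01 CPM. HOX genes, which encode position along the body axis, moved one way at small size. Of 28 tested, 17 fell and the other 11 were not called, with a median of -0.33 and no change of 2-fold (19 fell with equal column totals). Hoxb9 fell from 12.9 ± 0.508 to 6.53 ± 1.015 CPM and Hoxa9, the most abundant, from 69.9 ± 2.20 to 45.7 ± 2.13 CPM. Other homeobox genes leaned to falls (6 rose and 19 fell of 36, 5 and 21 with equal column totals), with a median of -0.19. At least 2-fold, 2 rose and 1 fell. Distal-less genes of the upper epidermis and its appendages went against this lean and stood at the top of the rises. Dlx5 read 1.61 ± 0.613 and 8.83 ± 0.630 CPM and Dlx3 4.998 ± 1.51 and 14.4 ± 0.650 CPM.

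The remaining factor families held single genes with sizeable changes. Irf1, an interferon response factor, read 29.3, 31.5 and 27.997 CPM with Ad-GFP and 13.8, 11.3 and 13.3 CPM with Ad-TEADi. It fell, as did the immunoproteasome gene Psmb8 (14.8 ± 0.992 to 6.002 ± 0.586 CPM). Vdr, the vitamin D receptor, fell from 125 ± 3.07 to 65.7 ± 1.74 CPM, while Esr1, the oestrogen receptor alpha gene, rose from 46.9 ± 0.858 to 95.7 ± 2.29 CPM and Rora, a retinoid-related orphan receptor, from 23.6 ± 3.63 to 51.3 ± 4.20 CPM. Among TEAD cofactors Vgll3, a vestigial-like protein that binds TEADs, fell from 95.9 ± 2.04 to 39.5 ± 2.71 CPM. Glis2, a zinc finger gene related to GLI, fell from 16.5 ± 1.15 to 7.62 ± 0.636 CPM. Smad7, the inhibitor of TGF-beta signalling, rose from 16.7 ± 1.19 to 36.04 ± 0.571 CPM. Numbered zinc finger genes of the Zfp series, most of them with unassigned roles, leaned to small falls: 115 of 301 fell and 43 rose, with a median of -0.13, and 153 fell and 31 rose with equal column totals.

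**Figure D4:**
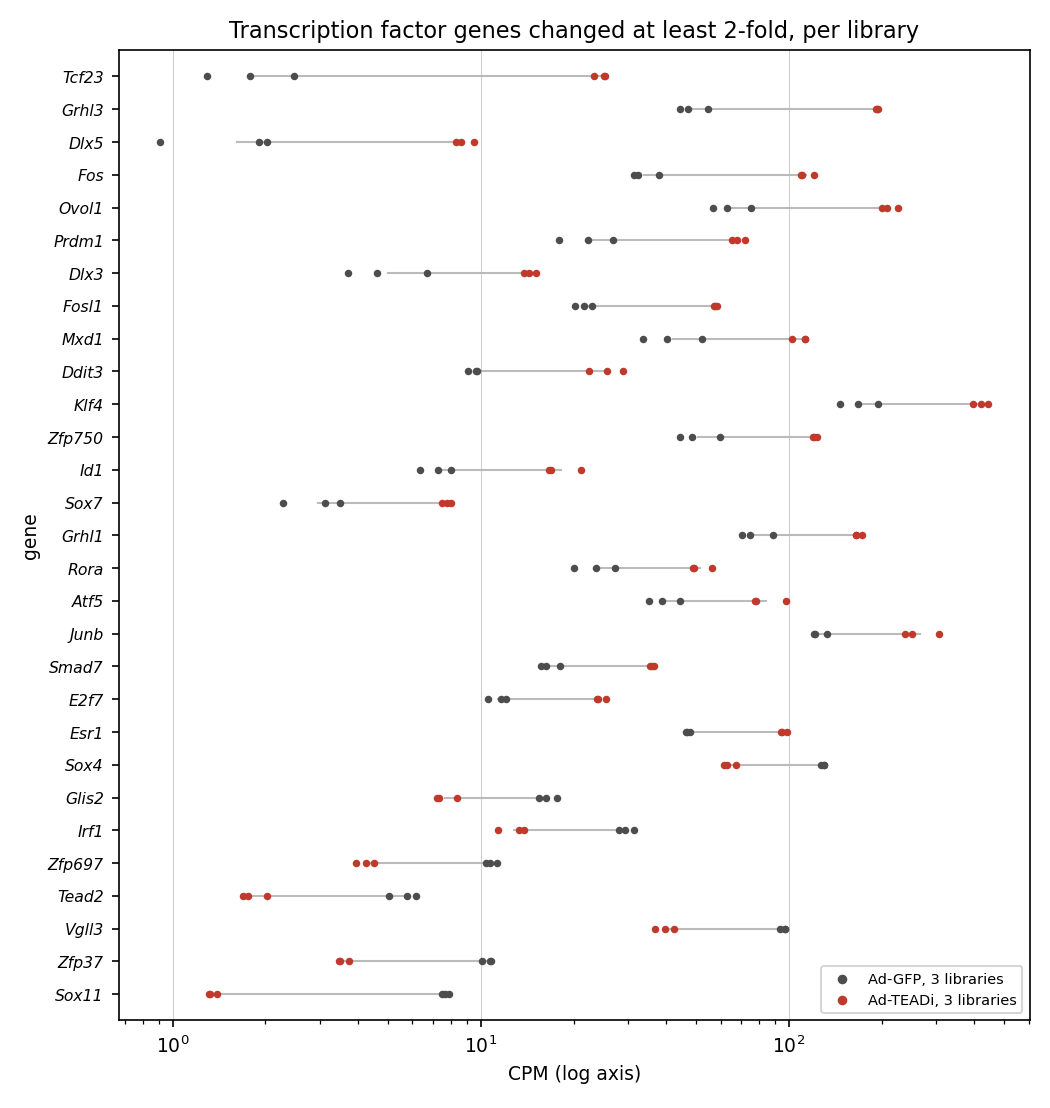
CPM (log axis) in each Ad-GFP (grey) and Ad-TEADi (red) library for 29 transcription factor genes called with at least a 2-fold change whose mean level reached 3 CPM, ordered by log2 change, with a line between the group means. The 21 genes that rose are above the 8 that fell, and Klf4 reaches the highest level of those drawn.

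Growth factor genes split by family. EGF family ligands bind the EGF receptor and its relatives, and several of them drive keratinocyte growth. Of 8 tested, 7 rose (6 with equal column totals), with a median log2 change of 1.11. Areg (amphiregulin, chr5:91139599-91148432) read 16.1, 13.2 and 19.06 CPM with Ad-GFP and 145, 121 and 134 CPM with Ad-TEADi (log2 change 2.98, SE 0.0930, adjusted p = 1.34e-15). Epgn (epigen), the most abundant of the family, read 159, 153 and 173 CPM and 501, 487 and 489 CPM (1.60). Ereg (epiregulin) read 19.8, 18.03 and 21.2 CPM and 57.5, 57.95 and 58.2 CPM (1.51). All 3 were higher in each inhibitor library. Btc (betacellulin) rose from 5.03 ± 0.774 to 14.7 ± 0.799 CPM, Hbegf from 83.95 ± 2.29 to 151 ± 9.23 CPM, Tgfa from 92.3 ± 3.01 to 155.1 ± 6.15 CPM and Nrg1 from 88.6 ± 0.974 to 102 ± 4.22 CPM, a rise that was not called with equal column totals. Nrg2, near 1 CPM in both groups, was not called. The 10 deposited genes of the family together took 0.0543% ± 0.00148 of the library with Ad-GFP and 0.120% ± 0.00138 with Ad-TEADi (SD, n = 3), and the exact two-sided permutation test gave p = 0.1, the smallest that 3 against 3 libraries allow.

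Cytokine genes moved strongly in both directions. Tslp (thymic stromal lymphopoietin, chr18:32815383-32819797), an epithelial cytokine that instructs dendritic cells, read 203, 177 and 220.4 CPM with Ad-GFP and 1098, 971 and 1051 CPM with Ad-TEADi (log2 change 2.38, SE 0.0672, adjusted p = 3.45e-16). Il33, an alarmin released by damaged epithelium, read 28.7, 21.9 and 35.7 CPM and 95.4, 83.1 and 94.5 CPM (1.65). Clcf1, a ligand of the ciliary neurotrophic factor receptor, read 20.9, 20.3 and 22.6 CPM and 74.9, 72.5 and 64.8 CPM (1.69). These 3 ligands rose, while Csf1 fell as described above. Of 23 genes of this list, 13 rose and 10 fell, so its median (0.33) does not describe its members. Tnf fell from 18.3 ± 1.59 to 6.03 ± 0.343 CPM. Chemokines were mainly lower (9 of 13 fell and 1 rose). Cxcl12, which retains leukocytes and stem cells in niches, read 9.66, 11.5 and 10.1 CPM and 1.79, 1.92 and 1.91 CPM, Ccl2, a monocyte attractant, fell from 6.29 ± 0.131 to 1.48 ± 0.225 CPM and Cxcl16 from 188 ± 6.44 to 95.9 ± 2.43 CPM, whereas Cxcl3 rose from 2.67 ± 0.274 to 4.62 ± 0.0637 CPM.

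Of 14 PDGF, VEGF and angiopoietin-related genes, 9 fell and 1 rose. The fall was large in Angptl4, a regulator of lipoprotein lipase and wound repair (24.8 ± 3.60 to 4.48 ± 0.430 CPM), and Angptl7 (8.54 ± 1.13 to 0.718 ± 0.0738 CPM), and Pdgfb, the growth factor for pericytes and fibroblasts, read 74.5, 79.7 and 79.1 CPM and 31.4, 31.04 and 31.1 CPM. Vegfa, the main blood vessel growth factor, was the exception and read 56.3, 57.8 and 61.8 CPM with Ad-GFP and 177, 159.9 and 159 CPM with Ad-TEADi (log2 change 1.48). WNT ligands fell in 9 of 12 cases and rose in 3. Wnt7a read 29.3, 30.3 and 31.7 CPM and 7.003, 6.35 and 6.65 CPM, Wnt9a fell from 33.7 ± 2.55 to 8.60 ± 0.518 CPM and Wnt4, the most abundant, from 131 ± 7.29 to 105 ± 2.89 CPM. Wnt5a, a ligand of the noncanonical pathway, rose from 24.5 ± 1.15 to 46.2 ± 2.35 CPM.

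Of 12 TGF-beta, activin, BMP and GDF ligand genes 6 fell and 2 rose, and of 12 antagonists and modulators of BMP, activin and WNT 9 fell and 3 rose. Inhba, which encodes the activin A subunit, read 321, 322 and 327 CPM with Ad-GFP and 106.95, 107.4 and 107.3 CPM with Ad-TEADi (log2 change -1.58), and its antagonist Fst (follistatin) read 458, 477 and 448 CPM and 194, 192 and 194 CPM (-1.25). Tgfb3 fell from 26.96 ± 1.93 to 8.61 ± 0.452 CPM and Bmp7 rose from 25.5 ± 1.55 to 35.7 ± 0.721 CPM. Dkk3, a secreted Dickkopf-related protein, fell from 186 ± 0.605 to 78.4 ± 5.83 CPM, while Sfrp1, a WNT antagonist, rose from 5.47 ± 0.933 to 11.2 ± 0.175 CPM. All 3 CCN genes tested fell: Ccn1 read 144, 149 and 147 CPM and 47.04, 44.6 and 43.3 CPM, and Ccn4 read 5.13, 4.17 and 5.40 CPM and 0.272, 0.328 and 0.297 CPM. Igfbp3, the main carrier of insulin-like growth factors, fell from 275 ± 7.47 to 96.9 ± 6.50 CPM.

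Among guidance molecules and hormones the larger genes were again on both sides. Sema3c, a secreted semaphorin at high level, read 493, 499.8 and 506 CPM with Ad-GFP and 149, 154 and 171 CPM with Ad-TEADi (log2 change -1.66). Ntn4, a netrin of basement membranes, fell from 23.8 ± 2.43 to 7.01 ± 0.0557 CPM, while Sema7a, a membrane-anchored semaphorin, rose from 3.39 ± 0.864 to 14.1 ± 0.865 CPM and Sema4b from 63.4 ± 1.20 to 128 ± 1.83 CPM. Pthlh, the parathyroid hormone-related protein gene, fell from 29.4 ± 1.36 to 12.6 ± 1.49 CPM. Stc2, a glycoprotein hormone induced by endoplasmic reticulum stress, rose from 5.001 ± 0.606 to 17.5 ± 2.61 CPM, and Metrnl from 16.6 ± 2.25 to 40.9 ± 2.55 CPM.

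Secreted proteases went in different directions by family. Of 30 serine protease genes, 20 rose and 6 fell. Klk7, a kallikrein that cleaves corneodesmosomes and the most abundant of its family, read 156, 133 and 209 CPM with Ad-GFP and 401, 357 and 402 CPM with Ad-TEADi (log2 change 1.24). Tmprss11e, a membrane serine protease, rose from 3.42 ± 0.749 to 22.8 ± 1.20 CPM and Klk11 from 2.44 ± 0.870 to 11.6 ± 0.449 CPM. The 6 falls included Prss23 (378 ± 12.2 to 153 ± 2.73 CPM), Htra1 (1111 ± 33.9 to 532 ± 9.54 CPM) and Plau, the urokinase gene (355 ± 7.82 to 265 ± 7.85 CPM). Stromelysins rose, with Mmp3 at 12.1, 10.1 and 10.97 CPM and 50.2, 42.1 and 48.4 CPM and Mmp10 at 24.5 ± 1.33 and 94.04 ± 4.32 CPM. Mmp14, a membrane-bound collagenase, fell from 222 ± 11.1 to 99.6 ± 2.99 CPM, and Timp3, a matrix-bound inhibitor, read 128, 132 and 132 CPM and 28.98, 28.3 and 28.2 CPM. Of 13 ADAMTS and ADAMTS-like genes 9 fell and the other 4 were not called, led by Adamts15, which cleaves proteoglycans (37.6, 40.1 and 36.9 CPM and 2.72, 3.60 and 4.57 CPM). Of 8 ADAM protease genes 4 fell and 1 rose, and Adam12 fell from 156 ± 1.75 to 40.2 ± 4.54 CPM.

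Of 19 cystatin, stefin, Kazal and WAP type inhibitors, 12 rose and 3 fell. Spink5, which encodes LEKTI, the inhibitor of epidermal kallikreins, read 260.4, 223 and 331 CPM with Ad-GFP and 677, 674 and 760.1 CPM with Ad-TEADi (log2 change 1.39), and Spink7 rose from 2.47 ± 0.991 to 23.02 ± 2.39 CPM. Slpi, an inhibitor of neutrophil elastase that is also antimicrobial, read 39.3, 37.99 and 41.4 CPM and 173, 167 and 166 CPM (2.06). Csta1 rose from 127 ± 27.5 to 453 ± 24.4 CPM and Stfa3 from 266 ± 57.9 to 786 ± 57.3 CPM, 2 stefins with near-identical copies whose reads may be split. Serpins went both ways, 11 of 25 up and 9 down: Serpinb6c rose from 22.999 ± 4.93 to 96.7 ± 1.72 CPM, and Serpinb2, the plasminogen activator inhibitor of keratinocytes, read 1165, 1176 and 1195 CPM and 514, 517 and 558 CPM (-1.15). Antimicrobial genes leaned to rises (11 of 16 rose and 3 fell, 8 and 4 with equal column totals), with S100a8 at 135 ± 28.5 and 445 ± 20.9 CPM and S100a9 at 203 ± 54.4 and 664 ± 47.6 CPM, the subunits of calprotectin.

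Laminins and nidogen fell in 9 of 10 genes and took 1.36% ± 0.0288 of the library with Ad-GFP and 0.839% ± 0.0469 with Ad-TEADi (SD, n = 3, exact permutation p = 0.1, the smallest possible). Lama3, a chain of the laminin that anchors hemidesmosomes, read 1821, 1812 and 1908 CPM and 1396, 1512 and 1553 CPM (log2 change -0.31), and Lamb3 fell from 1613 ± 63.6 to 1268 ± 24.6 CPM. Collagens fell in 14 of 24 genes and rose in 3. Col4a1, a basement membrane collagen, read 206, 231 and 215 CPM and 80.5, 79.1 and 79.6 CPM, and Col5a2 fell from 64.8 ± 2.71 to 12.97 ± 0.778 CPM. Fn1 (fibronectin) read 550.3, 545 and 580.2 CPM and 97.3, 116 and 122 CPM (-2.31), and Vwa1 fell from 155.2 ± 7.46 to 45.2 ± 1.08 CPM. Has3, which makes hyaluronan, rose from 42.8 ± 4.15 to 210.4 ± 3.07 CPM and Has2 from 14.6 ± 0.589 to 46.8 ± 0.448 CPM. Spp1 (osteopontin) rose from 0.842 ± 0.193 to 10.1 ± 1.09 CPM and Smoc2 from 3.45 ± 0.416 to 14.9 ± 0.981 CPM.

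**Figure D5:**
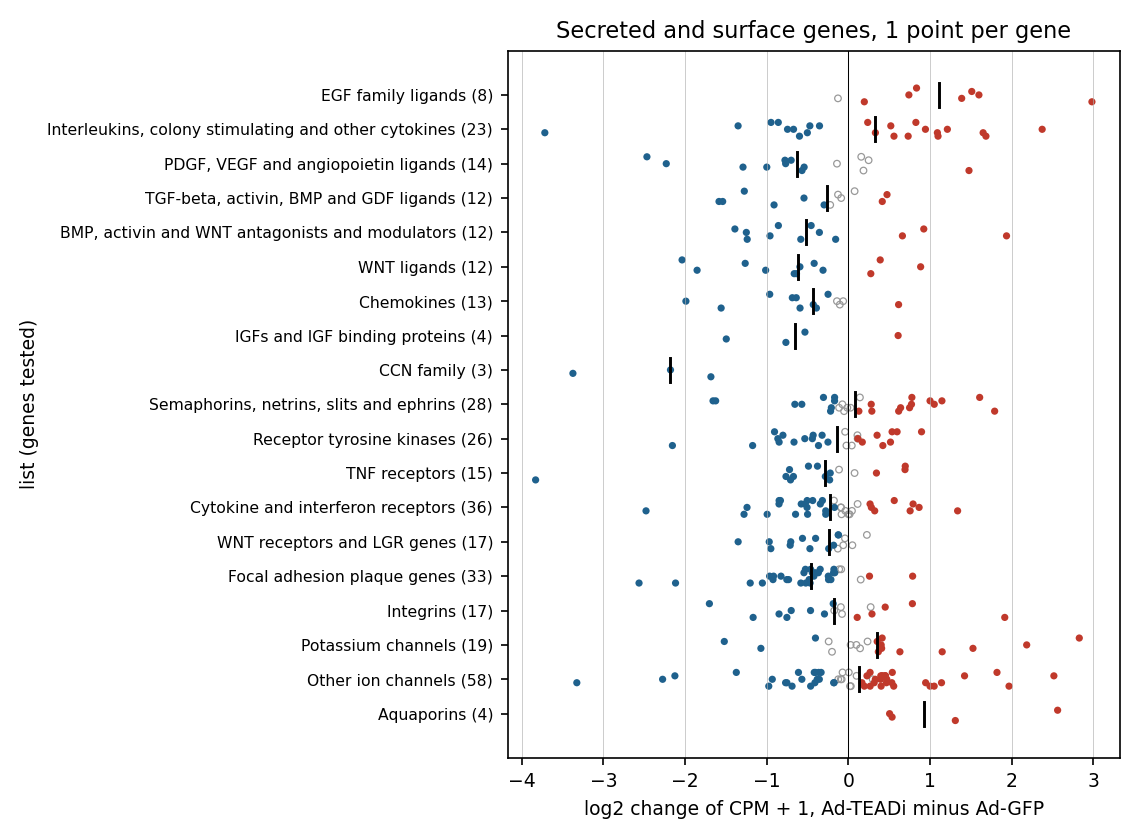
Log2 change of CPM + 1 (Ad-TEADi minus Ad-GFP, horizontal axis) for every tested member of 19 lists of secreted and surface genes, 1 point per gene, with the number tested in brackets. Filled points passed an adjusted p of 0.05 (red higher, blue lower), open points did not, and black bars are medians, from 1.11 for EGF family ligands to -2.18 for the CCN family.

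Surface receptors changed in both directions. Axl, a receptor tyrosine kinase of the TAM group, read 474, 501 and 487 CPM with Ad-GFP and 109, 106 and 112 CPM with Ad-TEADi (log2 change -2.15, SE 0.0479, adjusted p = 2.00e-17). Of 26 receptor tyrosine kinases 13 fell and 8 rose, and Axl and Ror1 (7.58 ± 0.752 to 2.81 ± 0.370 CPM) were the 2 that fell by at least 2-fold. Fgfr1 fell from 49.9 ± 1.16 to 27.004 ± 1.09 CPM while Fgfr3 rose from 50.5 ± 3.38 to 94.9 ± 3.15 CPM. Il18r1, a chain of the interleukin 18 receptor, read 45.3, 49.3 and 46.2 CPM and 7.16, 7.49 and 8.18 CPM (-2.48), and Il1r1 fell from 21.2 ± 0.819 to 8.45 ± 1.41 CPM. Cytokine receptors fell in 19 of 36 genes and rose in 8, among which Il20rb (16.95 ± 0.335 to 31.8 ± 1.67 CPM) and Il22ra1 (7.11 ± 0.846 to 13.03 ± 0.862 CPM) bind cytokines that act on keratinocytes. WNT receptors fell in 12 of 17 genes and the other 5 were not called, led by Fzd2 (22.1 ± 0.875 to 8.10 ± 0.847 CPM). Notch3, a receptor of suprabasal cells, rose from 27.4 ± 0.694 to 56.9 ± 5.55 CPM, while Notch1 read 238 ± 10.8 and 246 ± 9.93 CPM without passing the test.

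Other receptors gave changes in both directions. Among G protein-coupled receptors, 21 of 57 rose (36.8%) and 24 fell (42.1%), against 33.5% and 26.3% of all genes tested. F2rl1, which encodes the protease-activated receptor for trypsin-like enzymes, read 95.2, 97.7 and 105 CPM with Ad-GFP and 32.3, 34.3 and 31.8 CPM with Ad-TEADi (log2 change -1.57). Gpr161, a brake on Hedgehog signalling in cilia, fell from 92.02 ± 4.18 to 33.7 ± 0.752 CPM, and Adgrf2, an adhesion receptor, rose from 3.80 ± 1.28 to 18.2 ± 1.74 CPM. Stab1, a scavenger receptor, rose from 64.99 ± 1.39 to 249.8 ± 5.28 CPM. Cd200, a ligand that restrains myeloid cells and marks hair follicle bulge cells in human skin, read 123, 122 and 122 CPM and 25.2, 29.9 and 31.8 CPM (-2.05). H60c, a stress ligand for the NKG2D receptor, fell from 150.01 ± 5.35 to 53.9 ± 3.07 CPM, and Nrp2, a semaphorin coreceptor, from 120.3 ± 3.58 to 42.3 ± 3.26 CPM.

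Focal adhesion plaque genes fell in 28 of 33 cases and rose in 2, with a median of -0.46. Flnc, a filamin, read 11.1, 12.9 and 12.7 CPM with Ad-GFP and 1.52, 1.11 and 1.10 CPM with Ad-TEADi (log2 change -2.56), Tns1, a tensin, fell from 9.33 ± 1.14 to 1.38 ± 0.192 CPM, and Actn1 from 1105 ± 20.2 to 739 ± 21.8 CPM. Itgb6, a subunit of the integrin that activates latent TGF-beta, read 219, 223 and 226 CPM and 64.3, 68.5 and 71.04 CPM (-1.70). Itgb1 fell from 1597 ± 21.6 to 1305 ± 55.8 CPM and Itgb4, the hemidesmosome integrin, from 1756 ± 122 to 1273 ± 53.9 CPM, while Itga6 rose from 932 ± 34.2 to 1141 ± 61.2 CPM. Ncam1, a neural adhesion molecule, read 53.7, 58.4 and 53.4 CPM and 5.80, 5.41 and 4.96 CPM, and Mcam, also of the immunoglobulin type, fell from 151 ± 3.02 to 45.9 ± 1.89 CPM. Flrt2 fell from 899 ± 24.2 to 301 ± 25.9 CPM and its relative Flrt3 rose from 116 ± 3.91 to 231 ± 7.52 CPM. Of the membrane genes that rose, Ceacam19 went from 8.63 ± 2.26 to 45.5 ± 0.622 CPM, Lypd3 from 190.1 ± 13.2 to 729.5 ± 55.2 CPM and Ly6g6c from 18.04 ± 3.42 to 87.9 ± 4.19 CPM.

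Junction genes that connect neighbouring cells split by type. The connexin genes Gjb2 (502, 458 and 554 CPM with Ad-GFP and 1662, 1586 and 1572 CPM with Ad-TEADi) and Gjb6 (64.01 ± 14.3 to 227 ± 13.8 CPM) rose, by 1.67 and 1.84 on the log2 scale. Of the 9 connexin and pannexin genes tested, 4 rose and 4 fell. Cldn1, the main tight junction claudin of epidermis, fell from 287 ± 16.6 to 135 ± 5.53 CPM. Claudins and related genes fell in 8 of 17 cases and rose in 2. Evpl (envoplakin), a desmosome-linked precursor of the cornified envelope, rose from 159 ± 16.3 to 397 ± 24.3 CPM and Ppl (periplakin) from 203 ± 15.3 to 363 ± 15.1 CPM. Dst (dystonin), which ties keratins to hemidesmosomes, read 1351, 1365 and 1417 CPM and 616, 651 and 664 CPM (-1.10), and Cdh1 (E-cadherin) fell from 764 ± 26.05 to 553 ± 4.14 CPM. Cdh1 does not stand for its family, since 9 of 20 cadherin genes rose and 6 fell. At least 2-fold, 4 of them rose and 0 fell.

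Ion channels other than potassium channels went both ways (28 of 58 rose and 21 fell). Potassium channels leaned to rises (10 of 19 rose and 3 fell, 10 and 4 with equal column totals). ABC transporters rose in 17 of 29 cases and fell in 5. Over all genes tested, 33.5% rose and 26.3% fell. Aqp3, the water and glycerol channel of basal epidermis, read 201, 192 and 219 CPM with Ad-GFP and 542, 497 and 484 CPM with Ad-TEADi (log2 change 1.31), and Aqp9 read 9.78, 8.56 and 11.99 CPM and 67.1, 61.3 and 64.3 CPM (2.56). All 4 aquaporins tested rose. Trpv3, a warmth-gated calcium channel of keratinocytes, read 18.2, 15.3 and 20.1 CPM and 70.8, 70.6 and 76.1 CPM (1.97), and the epithelial sodium channel genes Scnn1a (10.5 ± 2.04 to 29.7 ± 1.64 CPM) and Scnn1b (2.69 ± 0.707 to 11.9 ± 0.582 CPM) rose. Abca12, the lipid transporter of lamellar granules, read 104, 94.7 and 132 CPM and 369, 358 and 389 CPM (1.76). Kcnj12, an inward rectifier, stood at 0.120 ± 0.0434 CPM in controls and 6.98 ± 0.734 CPM with the inhibitor, and Kcnk1, a leak channel, fell from 103 ± 1.54 to 48.3 ± 0.705 CPM. Pumps of the ATPase families leaned to rises (32 of 48 rose and 8 fell, 24 and 8 with equal column totals), though Atp1b1, a sodium pump subunit, fell from 19.8 ± 0.835 to 3.45 ± 0.767 CPM. Slc7a5, the large amino acid transporter, rose from 80.999 ± 6.30 to 172 ± 18.3 CPM.

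Small proline-rich genes rose in 9 of 13 cases and fell in 1, with a median of 1.91. Sprr1b read 181, 137.4 and 226 CPM with Ad-GFP and 761, 666 and 676 CPM with Ad-TEADi, and Sprr2f 3.20, 1.86 and 3.09 CPM and 23.8, 22.4 and 22.5 CPM, while the most abundant, Sprr2a2, read 3183 ± 81.9 and 3385 ± 166 CPM without passing the test. Transglutaminases and lipoxygenases, which crosslink the envelope and oxidise its lipids, rose in 8 of 10 cases and fell in 1 (median 2.03). Alox12b read 12.7, 8.22 and 16.01 CPM and 102, 91.8 and 93.02 CPM (2.90), Tgm3 24.3, 17.9 and 34.5 CPM and 159.7, 141 and 162 CPM (2.59), and Tgm1 rose from 43.8 ± 12.5 to 181 ± 8.52 CPM. The late cornified envelope genes of chromosome 3 rose in 7 of 18 cases and fell in 9, with a median of -0.14: Lce3d rose from 14.6 ± 4.79 to 90.3 ± 10.2 CPM and Lce3b from 6.78 ± 2.81 to 35.7 ± 2.86 CPM, while Lce1a1 fell from 6.60 ± 1.31 to 1.52 ± 0.505 CPM and Lce1a2 from 4.44 ± 0.629 to 1.57 ± 0.0562 CPM. Genes of the Sprr2, Lce1 and Lce3 groups and the Krt6 pair have near-identical copies, so their separate values are uncertain. Krt6b, a keratin of activated epidermis, read 1544, 1288 and 1882 CPM and 7137, 6724 and 6702 CPM (2.14), and Krt8, a simple epithelial keratin, fell from 17.2 ± 2.10 to 3.68 ± 0.729 CPM. All keratins together took 5.98% ± 0.135 of the library with Ad-GFP and 7.12% ± 0.252 with Ad-TEADi (SD, n = 3, exact permutation p = 0.1, the smallest possible).

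Of 16 actin, tropomyosin and calponin genes, 12 fell and 1 rose (Smtn, whose rise was not called with equal column totals), with a median of -0.77. Acta1 read 33.5, 35.9 and 36.9 CPM with Ad-GFP and 1.32, 2.33 and 1.57 CPM with Ad-TEADi, and Acta2, the smooth muscle actin, 389, 388 and 379 CPM and 104, 115 and 103 CPM. The light chain gene Myl9 fell from 50.7 ± 0.417 to 10.5 ± 0.520 CPM, and Tpm1 from 1385 ± 38.2 to 527 ± 5.09 CPM. Rises were found in Myo5b, a vesicle motor (6.63 ± 1.73 to 29.02 ± 1.92 CPM), Myh14, a nonmuscle myosin (16.2 ± 2.27 to 47.3 ± 1.35 CPM), and Rhof, a filopodial GTPase (2.98 ± 0.897 to 21.4 ± 0.600 CPM). Stard8, a gene for a focal adhesion protein, read 8.57, 8.33 and 8.70 CPM and 0.739, 0.573 and 0.720 CPM (-2.51). Of 14 cyclin genes 8 rose and 2 fell (7 and 3 with equal column totals), and Ccnd2 fell from 692 ± 2.21 to 309 ± 15.6 CPM. Of 25 genes for cyclin-dependent kinases and their inhibitors 6 rose and 8 fell. The kinase inhibitor Cdkn1a (p21) rose from 242 ± 6.95 to 455 ± 18.3 CPM. It does not stand for its list, in which 0 genes rose and 1 fell by at least 2-fold.

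Enzymes of fatty acid elongation, desaturation and activation rose in 28 of 56 cases and fell in 20 (25 and 22 with equal column totals). Phospholipases rose in 15 of 30 and fell in 8, and all genes tested rose in 33.5% and fell in 26.3% of cases. Pla2g4e, a cytosolic phospholipase, read 40.2, 32.9 and 56.1 CPM with Ad-GFP and 231, 229 and 242 CPM with Ad-TEADi (log2 change 2.45), and Pla2g4b rose from 4.38 ± 0.674 to 28.97 ± 4.03 CPM. Pnpla1, which makes acylceramides, rose from 18.2 ± 4.31 to 91.5 ± 2.05 CPM, Elovl4, which extends very long fatty acids, from 121 ± 29.5 to 398 ± 19.5 CPM, and Cyp4f39, which hydroxylates them, from 23.6 ± 5.12 to 127 ± 6.57 CPM. Fabp5, the epidermal fatty acid binding protein, read 728, 623 and 824 CPM and 2356, 2069 and 2155 CPM (1.60). The desaturases Fads1 (62.1 ± 0.843 to 28.9 ± 1.60 CPM) and Fads2 (186 ± 5.08 to 98.4 ± 5.39 CPM) fell. Glycosyltransferases fell in 29 of 63 cases and rose in 13. St8sia2, which makes polysialic acid on neural adhesion molecules, read 10.8, 11.6 and 10.7 CPM and 1.52, 1.43 and 1.19 CPM (-2.34), and St3gal5, the ganglioside sialyltransferase, fell from 21.8 ± 1.68 to 4.01 ± 0.203 CPM, while Galnt6, which starts O-glycans, rose from 21.1 ± 1.52 CPM by 2.29 on the log2 scale.

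Large housekeeping families shifted by small amounts that depended on scaling. Cytosolic ribosomal protein genes were higher in 71 of 79 cases, 44 with equal column totals and 27 after quantile normalization, with a median of 0.21, and no member reached 2-fold. Their share of the library was 4.62% ± 0.135 with Ad-GFP and 5.04% ± 0.237 with Ad-TEADi (SD, n = 3, exact permutation p = 0.1, the smallest possible). Proteasome genes rose in 31 of 37 cases and fell in 2 (21 and 3 with equal column totals). Aminoacyl-tRNA synthetases and their scaffold proteins, which charge transfer RNAs, rose in 18 of 23 cases (16 rose and 2 fell with equal column totals). Aars read 167, 167 and 174 CPM with Ad-GFP and 389.6, 366 and 357 CPM with Ad-TEADi (log2 change 1.13), and Gars rose from 224 ± 8.58 to 412 ± 14.9 CPM. Mitochondrial ribosomal protein genes rose in 31 of 75 cases and fell in 4, against 12 and 11 with equal column totals and 22 and 5 after quantile normalization.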

How the data were processed

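RNA was sequenced after polyA selection in 12 libraries, of which the 6 adenovirus libraries are compared here. The deposited table holds CPM that the authors scaled by trimmed means of M-values (TMM), as the name of the table says, and the submitters' processing notes name cutadapt 1.18, STAR 2.7.0f, Partek 8.0.19.0819 and the mm10 build. Neither the counting rule nor its use of strand is given in the sources used here. The authors' deposited comparison table gives a p-value, an FDR and a ratio per gene for the same contrast, per the file headers. Depth was inferred from the smallest CPM steps, and 83.4 to 85.4% of low values were whole reads within 0.1, too few for a count model. The log2 of CPM + 1 was fitted for all 12 libraries together with limma 3.58.1 (R 4.3.3) and an empirical Bayes trend. A gene was kept when 3 or more libraries reached 1 CPM, and an adjusted p below 0.05 (Benjamini-Hochberg) was called. The fitting step was tested on simulated data. Gene lists (118) were built from symbols, and they, their later corrections and the comparison were chosen with earlier results of these data known. Named genes were the 15 largest rises and 15 largest falls with a mean of at least 10 CPM and no overlap between groups, and in each list up to 3 such rises and falls with a mean of at least 3 CPM, the 3 most abundant members, and any member of a list of 10 or fewer. Coordinates are those of the files, and 99.9% of genes had the start and end, less 1 base, of GENCODE release M21. A few genes that met the naming rule are not reported here, and 1 of them is left out of the plot of transcription factors.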

Additional observations from a re-analysis of the deposited data

How the results depend on the processing

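Counts of calls moved little under most of the 16 alternatives. Against 4339 higher and 3415 lower, the fit on the 6 adenovirus libraries alone gave 4236 and 3328, no filter gave 4687 and 3716, and a filter of 5 CPM gave 3932 and 2837. A pseudocount of 0.1 CPM raised the genes at least 2-fold lower from 352 to 535 and those higher from 508 to 698. Leaving out 1 library at a time gave 3986 to 4218 higher, 3160 to 3255 lower, 485 to 551 at least 2-fold higher and 350 to 361 at least 2-fold lower. Equal column totals gave 452 and 433 genes at least 2-fold higher and lower. Letters were not taken to pair samples in the main fit. Deviations of same-letter libraries from their group means correlated at r of -0.00355 (A), 0.147 (B) and 0.161 (C). Ad-GFP B against Ad-TEADi C gave -0.166 and Ad-GFP C against Ad-TEADi B -0.143. Unlike letters that included A gave -0.0274 to 0.0282. These values do not exclude a pairing by letter. A replicate block gave 4436 higher and 3481 lower, and the B and C libraries, but not the A libraries, correlated best with their own letter. Among named genes, direction turned only for genes that were not called: Sprr2a2 to -0.00975 with equal column totals and -0.18 after quantile normalization, where limma called it lower (adjusted p = 0.0119), and Notch1 to -0.049 and -0.11. The rises of Trp63, Nrg1 and Smtn were not called under either rescaling, and that of Smtn was also lost without Ad-GFP A or without Ad-TEADi A. The cause was not tested. Precision is limited by 3 libraries a group.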

Other observations

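Several enzymes that handle retinoids, xenobiotics and sterols changed. Rdh1, a retinol dehydrogenase, rose from 2.24 ± 0.710 CPM with Ad-GFP to 13.2 ± 0.754 CPM with Ad-TEADi (mean ± SD, n = 3), Aldh3b2, an aldehyde dehydrogenase, from 32.5 ± 3.38 to 121 ± 3.22 CPM, and Rbp2, a cellular retinol binding protein, from 16.4 ± 3.05 to 48.5 ± 4.68 CPM. Sult2b1, which makes cholesterol sulfate in the upper epidermis, read 29.1, 27.6 and 32.99 CPM in Ad-GFP A, B and C and 111, 98.5 and 104 CPM in Ad-TEADi A, B and C. Of the 37 aldehyde dehydrogenase and retinoid genes tested, 14 rose and 10 fell (13 and 13 with equal column totals), near the 33.5% and 26.3% of all genes tested, and 6 rose by at least 2-fold. Among glutathione genes Gsta4 rose from 40.8 ± 3.12 to 97.3 ± 5.33 CPM and Chac1, which degrades glutathione, from 12.5 ± 1.61 to 37.96 ± 3.83 CPM, while Gclc, the catalytic subunit of glutathione synthesis, fell from 90.1 ± 2.78 to 57.6 ± 1.35 CPM. Cyp1b1, a target of the dioxin receptor, fell from 12.2 ± 0.656 to 3.90 ± 0.345 CPM.

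Tubulin genes differed by isotype. Tuba1a fell from 288 ± 6.70 to 111 ± 6.35 CPM and Tubb2b from 63.6 ± 1.38 to 39.7 ± 1.41 CPM, while Tubb2a rose from 43.6 ± 4.87 to 126 ± 5.88 CPM and Tuba4a from 359.7 ± 12.9 to 579 ± 31.97 CPM. These genes are similar in sequence, so their separate values are uncertain. Kif26b, an atypical kinesin, read 11.02, 12.2 and 11.2 CPM in Ad-GFP A, B and C and 2.33, 3.40 and 2.88 CPM in Ad-TEADi A, B and C, and Kif13b rose from 17.5 ± 4.95 to 60.3 ± 2.49 CPM. Elastic fibre and crosslinking genes, listed together, fell in 10 of 18 cases and rose in 3. Fbln5 (fibulin) fell from 9.07 ± 0.663 to 1.21 ± 0.159 CPM and Efemp1, a related matrix protein gene, from 41.1 ± 1.61 to 12.1 ± 0.433 CPM. S100a10, the annexin partner, fell from 1277 ± 18.8 to 517 ± 11.4 CPM.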
